A study of Mus musculus with 18 samples.

Results

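All 16 arrays of sorted cells in the series, of 18 arrays in all, were used to ask how far 2 sorted fractions of differentiating mouse embryonic stem cells moved apart between days 5 and 6 and days 7 and 8. The arrays form 8 pairs: on each of days 5, 6, 7 and 8, in each of batches 1 and 2, one array holds GFP-positive cells and one holds GFP-negative cells. All came from 1 line, D3, and from a transfected clone in which an enhancer of Nkx2-5, a homeobox gene of the early heart, and the minimal promoter of Hsp68 drive green fluorescent protein (GFP). The clone had been selected with hygromycin. It was differentiated as embryoid bodies, free-floating aggregates started in hanging drops, in medium without leukemia inhibitory factor and with ascorbic acid, and the cells were dissociated and sorted by flow cytometry. Every sorted array therefore carries the same transgenes and the same treatment, and differs in fraction, day and batch. The other 2 arrays hold cardiomyocytes of another clone, selected with G418 through a neomycin resistance gene under the alpha myosin heavy chain promoter. They have no fraction, day or batch in their labels and entered no test.

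Embryoid bodies make derivatives of all germ layers at once, so a sort by 1 reporter divides a mixture of cell types. Nkx2-5 marks cardiac progenitors early and stays on as they build sarcomeres, the contractile units of muscle. Visceral and gut endoderm, the epithelia that make serum and lipid-carrying proteins in the early embryo, arise in the same aggregates, as do endothelium and the first blood cells. These are bulk samples, so fewer cells of a type and less RNA per cell cannot be told apart.

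For each gene the gap of a pair is the log2 signal of GFP-positive cells minus that of GFP-negative cells of the same day and batch, after adding 6.8, the 25th percentile of all signals, to each. A gap of 1 is then a 2-fold difference, and an added constant makes it smaller for dim genes. The change of the gap is the mean of the 4 late pairs (days 7 and 8) minus the mean of the 4 early pairs (days 5 and 6). It was tested with limma, with each pair as a block, and called where the Benjamini-Hochberg adjusted p over all 13087 genes tested was under 0.05. Whether the arrays of a group go back to separate cultures is not given in the labels. The p-values then measure only the scatter among these arrays, and that scatter may be technical.

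The number of genes more abundant in GFP-positive cells grew with time, and the number less abundant overlapped between the stages. Genes with a signal at least 2-fold higher in GFP-positive cells numbered 255, 345, 519 and 212 in the early pairs (day 5 batches 1 and 2, then day 6 batches 1 and 2). In the late pairs, in the same order for days 7 and 8, there were 793, 687, 869 and 1902. Every late pair thus lay above every early pair, at a mean of 1063 ± 564.5 against 332.8 ± 136.0 (SD, n = 4 pairs each; exact permutation test, 2-sided, p = 0.0286, the smallest that 4 pairs against 4 can give). Genes at least 2-fold lower numbered between 205 and 927 in the early pairs and between 244 and 706 in the late pairs, which overlap (exact permutation p = 0.943). The array median of GFP-positive cells was above that of GFP-negative cells in all 4 late pairs, by a mean of 0.22 ± 0.050 on the log2 scale, and in 1 of the 4 early pairs, which had a mean of -0.087 ± 0.13 (SD, n = 4 each; exact permutation p = 0.0286). The part of this shift in the counts was not tested directly. With all array medians made equal, the late pairs had a mean of 375.8 more genes at least 2-fold higher, without overlap (exact permutation p = 0.0286), and 299.2 more at least 2-fold lower, with overlap (p = 0.229, exact permutation). The second difference was -26.5 as deposited and 168.8 with quantile normalization (exact permutation p = 0.4).

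**Figure D1:**
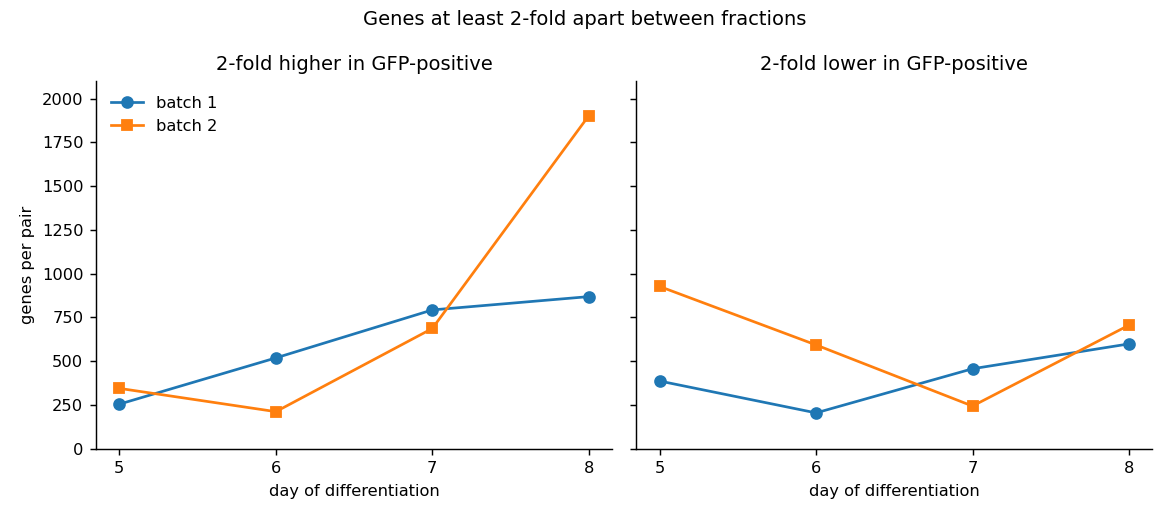
Number of genes at least 2-fold higher (left) or lower (right) in GFP-positive than in GFP-negative cells, per pair, against day of differentiation. Blue circles are batch 1 and orange squares batch 2. On the left the late pairs hold 687 to 1902 genes and the early pairs 212 to 519. On the right the 2 stages overlap.

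Over the whole table the gap changed for 202 of 13087 genes, 1.54% of those tested. It rose for 180 (1.38%) and fell for 22 (0.168%). Beside these, the 4 late gaps all lay above the 4 early ones in 957 genes (7.31%) and all below in 535 (4.09%). Among the called genes this held for 174 of 180 and 21 of 22. The call was made on these same gaps, so that share largely follows from it and is no further support. Of the 180 genes called higher, 140 had a mean early gap below 0 and 177 a mean late gap above 0. In 137 of them the mean gap turned from below to above 0, and in 21 of the 22 called lower it turned the other way. Over all 13087 genes the mean gap changed sign in 5873, and 7162 had an early one below 0. Many turns began from fractions that were nearly level. The mean early gap was within 0.5 of 0 in 92 of the 180 and 17 of the 22, and was at least 1 in size in 33 and 0.

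The size of the calls was large and their margin small. The median change was 1.89 for the genes called higher and -1.27 for those called lower, against 0.035 over all genes tested, and 171 and 15 of them changed by at least 2-fold. The lowest adjusted p was 0.0190, and 143 of the 180 and 16 of the 22 lay above 0.04. Leaving out 1 pair left 0 calls in 6 of 8 cases: day 5 batch 1, day 5 batch 2, day 6 batch 2, day 7 batch 1, day 8 batch 1 or day 8 batch 2, with between 2044 and 2734 genes at an unadjusted p under 0.05 in limma. Without day 6 batch 1 there were 1040 calls, and without day 7 batch 2 there were 587. Without the block limma called 0 genes (1533 and 1384 at an unadjusted p under 0.05 in 2 such fits). Equal array medians gave 1171 calls, of which 28.0% were higher, against 89.1% here. They lowered the median change of all genes to -0.25, and 196 of the 202 genes were called there too.

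**Figure D2:**
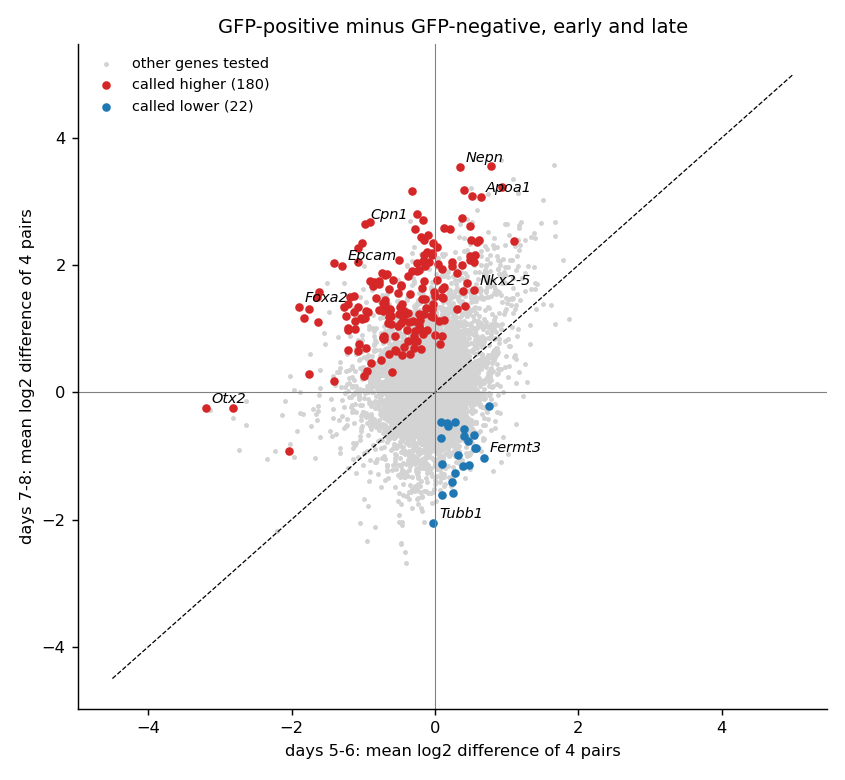
Mean gap of the 4 late pairs against the mean gap of the 4 early pairs, in log2 units, for 13087 genes. Red points are the 180 genes called higher, blue points the 22 called lower, grey points the other genes, and the dashed line marks no change. Most red points lie left of 0 on the horizontal axis and above 0 on the vertical one.

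The fractions took unequal parts in the change. Among the 180 genes called higher, the GFP-positive level was above its early mean in 175 and the GFP-negative level below its early mean in 151, with both in 146. The GFP-positive part was the larger in 127 and the GFP-negative part in 53, and the median shifts were 1.26 and -0.59. Among the 22 called lower, the GFP-negative level was above its early mean in 21 and the GFP-positive level below its early mean in 8, with both in 7. The GFP-negative part was the larger in 17, with a median GFP-negative shift of 1.63 against 0.24 in GFP-positive cells. Over all 13087 genes, each taken in the direction of its own change, the GFP-positive level moved with the gap in 8983. The GFP-negative level moved against it in 8218, with both in 4114. The GFP-positive part was the larger in 7144 of all genes and the GFP-negative part in 5943. Genes called for a large change of the gap tend to show such shifts by selection. These shifts within a fraction are descriptions and had no test of their own.

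**Figure D3:**
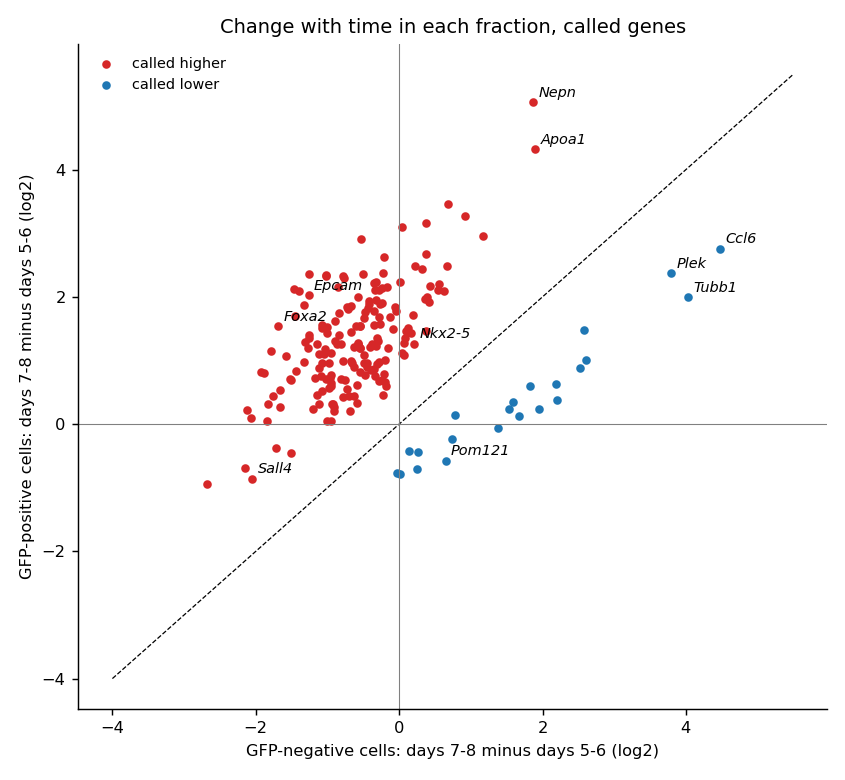
Late minus early mean log2 signal in GFP-positive cells (vertical) against the same in GFP-negative cells (horizontal) for the 202 called genes. The dashed line marks equal shifts. Red points (called higher) lie above it, mostly with a GFP-negative shift below 0. Blue points (called lower) lie below it, with Tubb1, Ccl6 and Plek at the right.

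The pairs did not all lie at the same distance. The median gap of the genes called higher was -0.42, -0.75, 0.33 and -0.71 in the early pairs and 1.33, 0.93, 1.39 and 2.04 in the late pairs. Day 6 batch 1 thus lay nearest to the late pairs and day 8 batch 2 farthest from the early ones. The change was larger in batch 2, with a median of 2.28 against 1.51 in batch 1. All 180 had the same sign in both, against 7795 of all 13087 genes. Both batches entered the call, so the shared sign is no separate support. Myh6 was low on both early days of batch 2. On day 5 it read 19.5 in GFP-positive and 25.0 in GFP-negative cells, against 730 and 189 in batch 1. On day 6 it read 37.3 and 25.9, against 1078 and 298 in batch 1. The Nkx2-5 gap of day 5 batch 2 was 0.072, the smallest of all pairs. As a sign of RNA quality, the Gapdh 3'-to-5' signal ratio, taken between the fractions of each pair, was compared across stages, and no difference passed (exact permutation p = 0.83).

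Nkx2-5 (1449566_at), whose enhancer drives the reporter, checks the sort. Throughout, signals of 4 arrays are given in the order day 5 batch 1, day 5 batch 2, day 6 batch 1 and day 6 batch 2, or the same for days 7 and 8. GFP-positive signals of Nkx2-5 were 170.0, 60.6, 184 and 67.4 early and 292, 215.5, 249 and 323 late, and GFP-negative signals were 95.2, 57.3, 107 and 43.5 and 105.5, 75.5, 76.3 and 79.4. It was higher in GFP-positive cells in all 8 pairs, and the late gaps did not overlap the early ones. The mean gap rose from 0.54 ± 0.33 to 1.6 ± 0.24 (SD, n = 4 each), a change of 1.06 ± 0.22 (SE; limma adjusted p = 0.0440; exact permutation p = 0.0286). The change was 0.75 in batch 1 and 1.37 in batch 2. Without the block the same estimate had adjusted p = 0.478. It passed without day 6 batch 1 or day 7 batch 2, and missed the threshold without any other single pair, ranging from 0.90 to 1.14 with limma adjusted p from 0.0237 to 0.155.

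Genes of the contractile apparatus had a median gap above 0 at both stages. Of 23 tested members of 26 in a sarcomere list, Tnnc1 was called, against 1.38% of all genes called higher. Of the 23, 20 lay above 0, and the median change was 1.08, but 0.42 in batch 1 and 1.64 in batch 2. The median gap of the list was 0.72 early and 1.83 late. Its summed signal in GFP-positive cells ranged from 3256 to 22469 early and from 28262 to 43474 late, and in GFP-negative cells from 2223 to 9430 and from 5770 to 16364. The late GFP-positive sums lay above all early ones, while the GFP-negative sums overlapped.

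Tnnc1 (1418370_at), which encodes cardiac troponin C, read 2030.0, 134, 1984.5 and 429 early and 3582, 2696, 2429 and 2185 late in GFP-positive cells. GFP-negative cells read 1104, 118, 755 and 518 and 1199.8, 802, 478 and 362. Both day 5 arrays of batch 2 were the lowest of all, and the late gaps did not overlap the early ones. The gap rose from 0.54 ± 0.73 to 2.05 ± 0.47 (SD, n = 4 each), by 1.51 ± 0.33 (SE; limma adjusted p = 0.0492), with day 6 batch 1 the highest early pair. Myh6 (1448826_at), the alpha myosin heavy chain, was not called: its change was 1.67 ± 0.49 (limma adjusted p = 0.0895), 0.30 in batch 1 and 3.04 in batch 2. In batch 1 its gap was 1.92 and 1.83 on days 5 and 6 and 1.95 and 2.39 on days 7 and 8. In batch 2 it went from -0.27 and 0.43 to 2.50 and 3.73. Troponin T (Tnnt2, 1.0, limma adjusted p = 0.0872) and alpha-actinin 2 (Actn2, 1.06, adjusted p = 0.151) also did not pass.

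Other heart lists gave 1 or 2 calls each, where 1.38% of all genes were called higher. Of 17 calcium handling and channel genes tested of 21, Hrc, a calcium-binding protein of the sarcoplasmic reticulum, was called, with gaps of 0.55, 0.078, 0.83 and -0.26 early and 1.66, 1.73, 1.65 and 2.44 late and a change of 1.57 ± 0.29 (SE; limma adjusted p = 0.0421). The list's median change was 0.82, with 16 above 0. Of 19 cardiac transcription factors tested of 20, Nkx2-5 and Hopx, an atypical homeobox gene, were called, and the median was 0.40, with 13 above 0 and 6 below, and from 0.14 to 0.72 without single pairs. Hopx had a change of 1.4 ± 0.28 (adjusted p = 0.0430). Isl1, of second heart field progenitors, had 1.93 and missed the threshold (limma adjusted p = 0.0516), while Tbx5 and Hand2 had estimates below 0 that did not pass. Of 13 tested genes of 16 in a list of natriuretic peptides and muscle metabolism, Fhl2 (1.25) and the muscle enolase Eno3 (1.02) were called and all 13 lay above 0, at a median of 1.03. Skeletal actin (Acta1), the 1 tested gene of 8 in a skeletal muscle list and also made by early heart cells, was called at 2.13 ± 0.44 (limma adjusted p = 0.0436). The smooth muscle list (9 tested of 11) gave no calls and a median of 0.32, with -0.048 in batch 1 and 0.67 in batch 2.

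**Figure D4:**
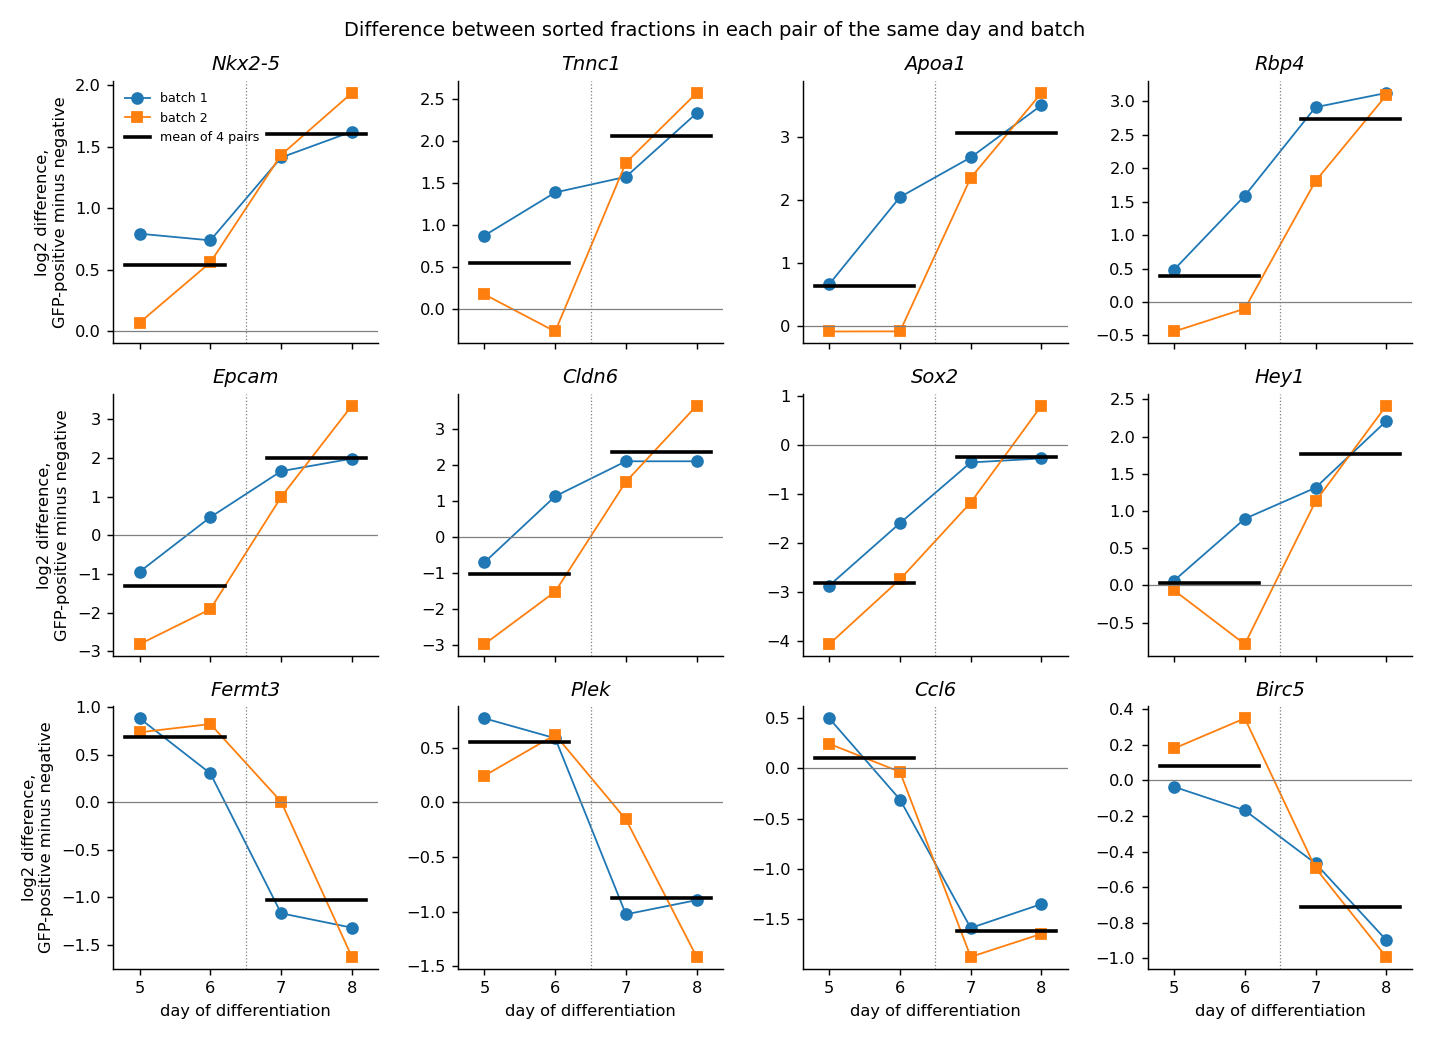
Gap between fractions (log2, GFP-positive minus GFP-negative) against day of differentiation for 12 genes. Blue circles are batch 1, orange squares batch 2, and black bars the mean of the 4 early or 4 late pairs. The late gaps of Apoa1, Rbp4, Epcam and Cldn6 lie between 0.99 and 3.70. Those of Fermt3, Plek and Ccl6 lie below 0, except Fermt3 on day 7 in batch 2, at 0.0060.

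Genes of visceral and gut endoderm included many whose gap rose. Of 23 tested members of 26 in a visceral and gut endoderm list, 11 were called higher and 0 lower, all 23 lay above 0, and the median change was 1.97 (1.56 in batch 1 and 2.70 in batch 2). The background is 1.38% called higher and a median of 0.035. The list's median gap was -0.028 early and 2.00 late. Its summed signal in GFP-positive cells ranged from 5705 to 14428 early and from 14774 to 37319 late, without overlap, and in GFP-negative cells from 9498 to 15816 and from 6263 to 11437. Without single pairs the list's median ranged from 1.73 to 2.33. The sums of the sarcomere and endoderm lists in GFP-positive cells were thus both higher late, and the part of either in the other's gap was not tested.

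Among the genes for secreted and lipid-carrying proteins, Apoa1 (1419232_a_at), the main protein of high-density lipoprotein, had GFP-positive signals of 43.2, 1.4, 118 and 3.3 early and 479, 182, 996.5 and 901.5 late. Its GFP-negative signals were 24.7, 1.9, 23.4 and 3.9 and 69.0, 30.0, 81.3 and 62.9. In batch 2 it was at 3.9 or below in both fractions until day 6, and the day 6 GFP-positive array of batch 1 was the highest early one. The gap rose from 0.64 ± 1.01 to 3.06 ± 0.65 (SD, n = 4 each), by 2.43 ± 0.48 (SE; limma adjusted p = 0.0424). Rbp4 (1426225_at), the plasma carrier of retinol, read 922, 80.2, 1909.9 and 312 early and 5548, 2167, 6085 and 5710.5 late in GFP-positive cells and 658, 111, 630.2 and 335 and 730.5, 613, 691 and 664 in GFP-negative cells. Late GFP-negative levels lay within or just above their early range while every late GFP-positive level exceeded the early ones. The gap of Rbp4 rose by 2.35 ± 0.41 (SE; adjusted p = 0.0378). The other called genes of this kind were Apom (2.78), Apob (2.78), the thyroid hormone carrier Ttr (1.78) and Apoc2 (1.6). Afp, the fetal serum protein, had 1.97 and missed the threshold (limma adjusted p = 0.0516), as did the liver and gut factor Hnf4a (2.52, adjusted p = 0.0639).

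The forkhead factor Foxa2 (1422833_at), a regulator of endoderm, moved from one fraction to the other. GFP-positive signals were 106, 41.0, 153 and 68.4 early and 282, 148, 354 and 282 late, and GFP-negative signals 416, 765, 139 and 256 and 78.4, 115, 130.3 and 73.4. It was higher in GFP-negative cells in 3 of 4 early pairs and in GFP-positive cells in all late pairs, with a change of 3.23 ± 0.68 (SE; limma adjusted p = 0.0440). Cpn1 (1417745_at), the catalytic subunit of a plasma carboxypeptidase, had the largest change of the called genes, 3.61 ± 0.59 (SE; adjusted p = 0.0378). Its signals in GFP-positive cells were 63.6, 4.5, 54.0 and 25.2 early and 192, 61.9, 249 and 295 late, against 95.2, 55.2, 37.0 and 75.7 and 34.0, 16.2, 23.6 and 17.7 in GFP-negative cells. Every late GFP-positive level except day 7 batch 2 exceeded the early ones, and every late GFP-negative level lay below all early ones. Nepn (1419065_at), a secreted leucine-rich protein, read 28.1, 1.2, 74.6 and 11.1 early and 949.5, 84.9, 2431 and 2324 late in GFP-positive cells, and 23.0, 2.2, 23.5 and 12.1 and 80.9, 24.0, 124 and 70.2 in GFP-negative cells. Every late level exceeded every early one within its fraction, and in the late pairs GFP-positive cells were the higher. Its gap changed by 3.19 ± 0.61 (SE; adjusted p = 0.0424).

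Promoters of Cpn1, Rbp4 and Nepn are shown as examples, picked after their values were seen, of genes called higher that hold the 7 letters TGTTTAC, which forkhead factors such as Foxa2 can bind. Each is the 250 bases before the annotated start in RefSeq, build GRCm38.p6, given 5′ to 3′ on the gene's strand, with that run, or its reverse complement GTAAACA, in capitals. Cpn1 lies at chr19:43986521-43986770 (minus strand), Rbp4 at chr19:38125322-38125571 (minus strand, the first of 2 entries) and Nepn at chr10:52391358-52391607 (plus strand).
Cpn1: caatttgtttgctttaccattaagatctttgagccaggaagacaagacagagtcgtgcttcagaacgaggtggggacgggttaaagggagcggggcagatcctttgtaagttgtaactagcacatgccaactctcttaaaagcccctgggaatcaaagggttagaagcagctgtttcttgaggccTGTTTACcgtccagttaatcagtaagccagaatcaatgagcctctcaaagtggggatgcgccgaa
Rbp4: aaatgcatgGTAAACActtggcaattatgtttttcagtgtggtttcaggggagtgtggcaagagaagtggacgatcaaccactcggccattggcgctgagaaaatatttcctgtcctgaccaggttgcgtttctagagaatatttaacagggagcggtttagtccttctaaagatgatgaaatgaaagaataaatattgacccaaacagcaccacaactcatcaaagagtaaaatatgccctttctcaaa
Nepn: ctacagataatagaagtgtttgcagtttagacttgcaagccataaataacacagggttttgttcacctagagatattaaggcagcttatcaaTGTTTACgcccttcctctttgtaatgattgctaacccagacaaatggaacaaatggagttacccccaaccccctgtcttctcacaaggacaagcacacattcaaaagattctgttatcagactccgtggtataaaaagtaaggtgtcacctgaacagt
The run begins 65 bases before the start in Cpn1, 241 in Rbp4 and 158 in Nepn. Searched on both strands over 300 bases (250 before to 50 after the start, 1 promoter a gene), it occurred in 8 of the 129 genes called higher that had an entry (6.2%), in 1 of 17 called lower (5.88%), in 1 of the 8 called endoderm list genes with an entry (12.5%), which is Rbp4, and in 959 of 27025 promoters in all (3.55%). Of the called genes, 146 had an entry. Of 5 other runs searched the same way, AGGTCA was found in 14% of the genes called higher and 16% of all promoters. For GTTAAT the shares were 6.2% and 7.2%, for AGATAA 7.75% and 11.4%, for TATAAA 14% and 14.2%, and for GGAAGT 24.8% and 24.1%. GTTAAT also occurs in the Cpn1 promoter, and TATAAA and AGATAA in that of Nepn. A match describes letters and was not tested for binding.

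The 15 largest changes upward among called genes held 4 genes of junctions or adhesion, Epcam and 3 claudins, a grouping made after the values were seen. Epcam (1416579_a_at), an adhesion molecule of epithelia and of undifferentiated embryonic stem cells, had GFP-negative signals of 844, 1505, 317 and 649 early and 365, 235, 469.8 and 185 late, and GFP-positive signals of 436, 209, 441 and 168 and 1164, 473, 1871 and 1947.5. GFP-negative cells were the higher in 3 of 4 early pairs, all but day 6 batch 1, and GFP-positive cells in all late pairs. The gap changed by 3.29 ± 0.63 (SE; limma adjusted p = 0.0424), 2.05 in batch 1 and 4.53 in batch 2. The tight junction protein Cldn6 (1417845_at) read 352, 102, 513 and 115 early and 1181, 485, 1646.5 and 1657 late in GFP-positive cells and 578.5, 844, 231 and 342 and 271, 164, 379.8 and 127 in GFP-negative cells, a change of 3.36 ± 0.71 (SE; adjusted p = 0.0440). Only the day 6 pair of batch 1 had Cldn6 higher in GFP-positive cells before day 7. The related claudins Cldn9 (3.44) and Cldn7 (3.34), the epithelial splicing regulator Esrp1 (3.16), the epithelial clathrin adaptor subunit Ap1m2 (3.2) and the serine protease Tmprss2 (3.59) shared this course. So did the protease inhibitor Spink1 (3.49). The keratins Krt18 (1.85) and Krt19 (1.82) were lower in GFP-positive cells in all early pairs and higher in the late ones, except Krt19 on day 7 in batch 2, at -0.037. For these genes the limma adjusted p-values ranged from 0.0410 to 0.0490. The remaining genes among the 15 largest called changes upward were the membrane carboxypeptidase Cpm (3.12), Fam183b (3.07), the trefoil peptide Tff3 (3.06) and the insulin receptor substrate Irs4 (3.0). Tff3 was at 7.4 or below on all early arrays, and from 15.9 to 174 on the late GFP-positive ones.

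A few genes of the undifferentiated state and of the early embryo, most of them higher in GFP-negative cells early, were called as their gap narrowed or turned. Of 22 tested pluripotency genes of 23, Sox2, Tfcp2l1 and Sall4 were called higher, 20 lay above 0, and the median change was 0.60, against 1.38% called higher and a median of 0.035 over all genes. The list's median gap stayed below 0, at -0.65 early and -0.31 late. Its summed signal in GFP-negative cells ranged from 3316 to 20702 early and from 2191 to 2930 late, and in GFP-positive cells from 3919 to 11231 and from 3346 to 3678. In both fractions the late sums lay below all early ones.

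Sox2 (1416967_at), a factor of stem cells, neural cells and foregut, read 518, 529, 212 and 189 early and 224, 123, 372 and 135 late in GFP-negative cells and 65.3, 25.3, 66.0 and 22.6 and 175, 51.1, 308 and 242 in GFP-positive cells. The early gap of -2.81 ± 1.01 had narrowed to -0.24 ± 0.81 (SD, n = 4 each), a change of 2.57 ± 0.49 (SE; limma adjusted p = 0.0424). Otx2 (1425926_a_at), a head and epiblast factor and the 1 gene called of 13 tested neuroectoderm genes of 20, went from 463, 1517, 186 and 305 to 119, 155, 151.5 and 85.9 in GFP-negative cells, against 60.7, 161, 39.5 and 4.7 and 108, 60.1, 136 and 129. The late GFP-negative levels lay below all early ones. Its gap closed from -3.2 ± 1.14 to -0.25 ± 0.76, by 2.95 ± 0.52 (SE; adjusted p = 0.0394). Tfcp2l1, a factor of naive stem cells and of epithelia, differed in kind. Its early gaps lay on both sides of 0, at a mean of -0.15 ± 1.14. Its late gap was 2.39 ± 0.79 (SD, n = 4 each) in favour of GFP-positive cells, and its change 2.54 ± 0.56 (SE; limma adjusted p = 0.0488). Nanog, with 1.82, did not pass (adjusted p = 0.172). Of 15 primitive streak and early mesoderm genes tested of 18, the signalling ligand Nodal was called (2.04 ± 0.43, limma adjusted p = 0.0440), 14 lay above 0, and the median was 1.04. The 13 neuroectoderm genes had a median of 0.48, with 11 above 0. Beside both lists, 1.38% of all genes were called higher, and the median over all genes was 0.035.

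For others the GFP-negative level shifted down more than the GFP-positive one. Sall4 (1424152_at), a stem cell zinc finger factor, had a late mean -2.05 log2 units from its early one in GFP-negative cells and -0.86 in GFP-positive cells, for a change of 1.19 ± 0.22 (SE; limma adjusted p = 0.0424). Its late GFP-negative signals were 539, 612, 369.7 and 363 and its late GFP-positive signals 767, 821, 804 and 853. Id1, an inhibitor of differentiation induced by bone morphogenetic proteins, had shifts of -1.0 and 0.052 in the 2 fractions and a change of 1.05 ± 0.21 (adjusted p = 0.0430).

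Endothelial genes were apart at both stages. All 27 listed genes were tested. Flt1 was called, against 1.38% of all genes, 25 lay above 0, the median change was 0.94 (0.54 in batch 1, 1.43 in batch 2), and the median gap was 1.09 early and 2.07 late. Of the 2 genes below 0, Fli1 went from a mean gap of 1.29 early to 0.17 late. Its change of -1.12 did not pass (limma adjusted p = 0.0573). Flt1 (1451756_at), a receptor of vascular endothelial growth factor, had GFP-positive signals of 169, 197, 230.5 and 213 early and 442.5, 259, 867 and 968 late and GFP-negative signals of 120.4, 219, 67.2 and 218 and 96.5, 45.9, 119 and 100.3. The fractions were close on 2 of the 4 early pairs, both in batch 2, and apart in all late pairs. The gap of Flt1 rose by 2.12 ± 0.38 (SE; limma adjusted p = 0.0394). Kdr, the other main receptor of that ligand, was higher in GFP-positive cells in all 8 pairs, by 0.79 to 1.98, and its change of 0.34 ± 0.24 did not pass (adjusted p = 0.43). The list's summed signal in GFP-positive cells ranged from 7941 to 11857 early and from 10222 to 18648 late.

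Of 26 Notch, BMP, WNT and FGF pathway genes tested of 28, 3 were called higher and 0 lower, against 1.38% and 0.168% of all genes. The median was 0.49, with 21 above 0. Hey1 (1415999_at), a target of Notch in endothelium and heart, read 263, 372.5, 431 and 153 early and 688, 411, 882 and 749 late in GFP-positive cells, and 251, 390.0, 229 and 269 and 273, 184, 185 and 135 in GFP-negative cells. Its early gaps lay on both sides of 0 and its late gaps between 1.13 and 2.42, a change of 1.74 ± 0.36 (SE; limma adjusted p = 0.0440). Id1 and Id2 (1.59), targets of BMP signals, were the others called. The Notch receptors Notch1 (1.27) and Notch4 (1.84) and the ligand Dll4 (1.18) had estimates above 0 that did not pass (limma adjusted p = 0.0644, 0.0886 and 0.0725). Of the 5 genes below 0, Wnt2 had the lowest estimate, -1.25, which did not pass either (limma adjusted p = 0.0838).

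**Figure D5:**
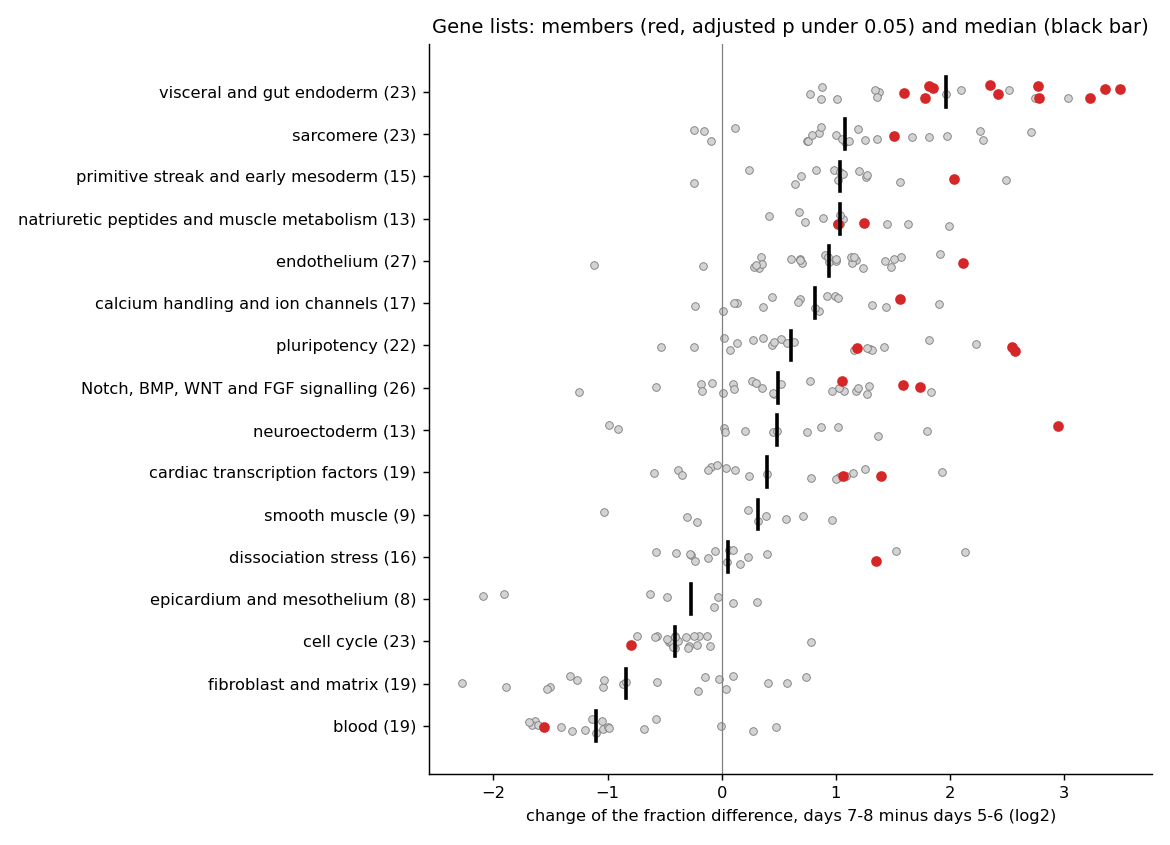
Change of the gap (log2, days 7 and 8 minus days 5 and 6) for the tested members of 16 gene lists, with the number tested in brackets. Red points are called genes, grey points the others, and black bars the list medians. The endoderm list lies wholly above 0 at a median of 1.97, and the blood list has the lowest median, -1.10.

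Among the genes whose gap fell were several of platelets, their precursors and other blood cells. Of 19 tested blood genes of 20, the megakaryocyte and erythroid factor Nfe2 was called lower, 17 lay below 0, and the median change was -1.10 (-0.83 in batch 1 and -1.37 in batch 2), against a background of 0.168% called lower and a median of 0.035. Without single pairs the median ranged from -1.31 to -0.90. The globin genes Hbb-bh1 (-0.0012) and Hba-x (0.28) of primitive red cells did not pass (limma adjusted p = 0.998 and 0.299). Nor did Hbb-y, at -0.58 (adjusted p = 0.446), with 0.42 in batch 1 and -1.57 in batch 2. The blood list's summed signal in GFP-negative cells ranged from 949 to 31280 early and from 33297 to 40892 late, and in GFP-positive cells from 2764 to 24325 and from 25550 to 28701.

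Fermt3 (1456014_s_at), an activator of integrins in blood cells, read 1887, 102, 1716 and 1987 early and 1001, 1645, 899.7 and 902 late in GFP-positive cells, and 1021, 58.7, 1389.9 and 1121 and 2256.5, 1638, 2253 and 2795.5 in GFP-negative cells. It was higher in GFP-positive cells in all early pairs and lower in 3 of 4 late pairs, the day 7 pair of batch 2 being level. The gap went from 0.69 ± 0.26 to -1.03 ± 0.71 (SD, n = 4 each), a change of -1.71 ± 0.29 (SE; limma adjusted p = 0.0378). Plek (1448748_at), or pleckstrin, of platelets and white cells, had GFP-positive signals of 781, 13.2, 1882 and 218 and 1375, 1639.8, 1434 and 1456 and GFP-negative signals of 456, 10.1, 1251 and 140.0 and 2805, 1829, 2673.5 and 3892. Its early gaps were above 0 and its late gaps below 0 in all pairs, with a change of -1.43 ± 0.23 (SE; adjusted p = 0.0378).

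Ccl6 (1417266_at), a chemokine of myeloid cells, was at 5.5 or below early outside day 6 batch 1, with GFP-negative signals of 1.9, 1.8, 58.8 and 1.8 and then 352, 74.5, 491 and 707.5, and GFP-positive signals of 5.5, 3.4, 46.1 and 1.6 and 112, 15.3, 188 and 221. Late GFP-negative signals exceeded late GFP-positive ones in every pair, and the change of the gap was -1.72 ± 0.26 (SE; limma adjusted p = 0.0378). Tubb1 (1444214_at), the beta tubulin of platelets, had the lowest change of the called genes, -2.04 ± 0.43 (SE; adjusted p = 0.0444). Its late GFP-negative signals were 1544, 667.5, 1712 and 2026 and its late GFP-positive signals 242, 340.4, 388 and 348. Its day 6 gap in batch 1, -1.27, already lay among the late ones, which ran from -2.64 to -0.96. Rab27b (-1.65) and Slc35d3 (-1.61), both needed for platelet dense granules, Nfe2 (-1.55) and the red cell membrane protein Gypc (-1.23) were also called. The megakaryocyte genes Pf4 (-1.61, limma adjusted p = 0.0676) and Itga2b (-1.1, adjusted p = 0.121) and the factor Gata1 (-1.14, adjusted p = 0.0848) did not pass.

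The rest of the 15 lowest changes past the threshold were of mixed kind. They were the death receptor Fas (-1.83), the scaffold Cass4 (-1.55), the kinase Mknk1 (-1.45), Smim3 (-1.3) and Pdzk1ip1 (-1.22). The nuclear pore gene Pom121 (-1.22) and the manganese transporter Slc30a10 (-1.1) were the others. Pom121 (1427886_at) shared the lowest adjusted p of all genes, 0.0190 in limma, with Itpr3 (2.28) and 9030622O22Rik (2.27), both called higher. The GFP-negative signals of Pom121 were 2716, 1266, 1404.5 and 1607 early and 2462, 2594, 2769 and 2656 late. Its GFP-positive signals were 3050.4, 1627, 1287.5 and 1591 and 1121, 1446, 1083 and 1172. The late gaps ran from -1.35 to -0.84 and the early ones from -0.13 to 0.36, so the groups were far apart beside their spread.

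Matrix and mesothelial genes gave no calls, where 0.168% of all genes were called lower. Of 19 tested fibroblast and matrix genes of 21, 0 were called, 14 lay below 0, and the median was -0.84, with -1.37 in batch 1 and -0.26 in batch 2, and from -1.11 to -0.36 without single pairs. The collagen Col3a1 had -1.5 ± 0.46 (SE; limma adjusted p = 0.0945) and lumican, Lum, -2.28 ± 0.59 (adjusted p = 0.0651). Of 8 tested epicardium and mesothelium genes of 10, 0 were called, and the median was -0.27, but -0.66 in batch 1 and 0.095 in batch 2. The marker Upk3b had -2.09 ± 0.61 (SE; limma adjusted p = 0.0862).

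The cell cycle list had small changes, nearly all below 0. Of 23 tested of 24, Birc5, or survivin, was called lower and 22 lay below 0. The median change was -0.40, with -0.18 in batch 1 and -0.56 in batch 2. Beside these, 0.168% of all genes were called lower, and the median over all genes was 0.035. Birc5 (1424278_a_at) read 1369, 1689.6, 1315 and 1469.8 early and 1045, 1041, 655 and 713 late in GFP-positive cells, and 1405.5, 1493, 1479 and 1154 and 1448, 1468, 1226 and 1425 in GFP-negative cells. GFP-negative levels overlapped between stages while the late GFP-positive ones lay below all early ones, for a change of -0.79 ± 0.16 (SE; limma adjusted p = 0.0436). Genes induced by cell dissociation had a median of 0.052 (16 tested of 16), with 9 above 0 and 7 below. Gadd45b was called higher (1.35 ± 0.30, limma adjusted p = 0.0490), where 1.38% of all genes were, and the rest were not called. The heat shock genes Hspa1a (2.14) and Hspa1b (1.53) had larger estimates that did not pass (limma adjusted p = 0.0926 and 0.0763). That list's median was -0.045 in batch 1, -0.22 with equal array medians, and as low as -0.053 without single pairs. The sign of the median held under all 24 alternatives for the other lists, except smooth muscle in batch 1 alone and epicardium in batch 2 alone.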

How the data were processed

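RNA of 16 sorted and 2 cardiomyocyte samples was measured on Affymetrix mouse arrays after T7 oligo dT amplification in 2 rounds, per the labels. The deposited values are linear signal intensity. The submitters' processing notes name GCOS 1.4 and MAS5. Without detection calls, dim values were judged from the signal alone. The mean of each array, with 2% trimmed at each end, lay between 150.0008 and 150.0012. Precision is limited by how many arrays there are.

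Of 45101 probe sets, 64 controls, 9160 with no gene symbol and 932 with several were left out. For each of 18193 genes the brightest probe set was taken, passing over those named _x_at where the gene had another. Genes at 22.5 or more, the median of all signals, on at least 2 sorted arrays were tested, 13087 in all. The fit used limma 3.58.1 in R 4.3.3 on log2(signal + 6.8), with 8 pair blocks, a variance trend and 6 residual degrees of freedom. The batch named in the titles pairs the fractions. Batch differences of the 2 fractions correlated across genes at 0.662, 0.413, 0.352 and -0.0499 on days 5 to 8.

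The members and lists were chosen with earlier results of these data known. Named by rule were Nkx2-5 and Myh6, the 15 largest changes in each direction past the threshold (no clone or model names) and, of each list, members past the threshold or else up to 4 with the lowest p. Other named genes were chosen after their values were seen. Alternatives covered block, batch, days, offset, scaling, filter, probe sets, variance and leaving out each pair. The script was tested on simulated data. Plots used Python 3.11.15 and matplotlib 3.10.9.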

Additional observations from a re-analysis of the deposited data

Results flagged for a closer look

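The change of the gap between days 5 and 6 and days 7 and 8 passed the interaction test for 202 genes, and for 73 of the 97 genes named or looked up. Changes upward, in log2 units, were Cpn1 (3.61), Tmprss2 (3.59), Spink1 (3.49), Cldn9 (3.44), Cldn6 (3.36), Cldn7 (3.34), Epcam (3.29), Foxa2 (3.23), Ap1m2 (3.20) and Nepn (3.19). Next came Esrp1 (3.16), Cpm (3.12), Fam183b (3.07), Tff3 (3.06), Irs4 (3.0), Nkx2-5 (1.06), Tnnc1 (1.51), Hrc (1.57), Hopx (1.4) and Eno3 (1.02). Further genes were Fhl2 (1.25), Flt1 (2.12), Ttr (1.78), Apoa1 (2.43), Apob (2.78), Apoc2 (1.60), Apom (2.78), Rbp4 (2.35), Krt18 (1.85) and Krt19 (1.82). Also above 0 were Sox2 (2.57), Sall4 (1.19), Tfcp2l1 (2.54), Nodal (2.04), Otx2 (2.95), Hey1 (1.74), Id1 (1.05), Id2 (1.59), Gadd45b (1.35) and Acta1 (2.13). To these add Ocln (2.32), Marveld2 (2.58), Crb3 (2.65), Krt7 (2.60), Apoe (1.61), Mttp (1.90), F2 (2.15), Epas1 (2.27), Gja4 (1.27) and Irx3 (1.26). The last upward group held Irx5 (2.07), Ccn1 (1.73), Ccn2 (2.57) and Cyp26a1 (1.74). Changes downward were Tubb1 (-2.04), Fas (-1.83), Ccl6 (-1.72), Fermt3 (-1.71), Rab27b (-1.65), Slc35d3 (-1.61), Nfe2 (-1.55), Cass4 (-1.55), Mknk1 (-1.45), Plek (-1.43) and Smim3 (-1.30). The others below 0 were Gypc (-1.23), Pdzk1ip1 (-1.22), Pom121 (-1.22), Slc30a10 (-1.10), Birc5 (-0.79), Ccnd3 (-0.64), Ube2c (-0.71) and Uhrf1 (-0.74). 

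Single pairs stood apart from the other 3 of their stage in 10 of 194 groups of 4 pair gaps looked at, by Dixon's criterion, and chance gives about 5% of groups. On day 6 in batch 1 the Tubb1 gap was -1.27 and the Ccnd3 gap -0.11, each below the other early pairs. On day 5 in batch 2 the F2 gap was -1.97, below the other early pairs. On day 7 in batch 2 the gaps were -0.99 for Fas, -0.34 for Rab27b, 1.81 for Rbp4 and 1.49 for Cyp26a1, each nearer to the early pairs than the other late ones. On day 8 in batch 2 the gaps were 2.44 for Hrc, 2.01 for Hopx and 0.96 for Irx3, the highest of their stage.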

How the results depend on the processing

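With the pairs as a block 202 genes were called. Without the pairing there were 0 calls, both with 8 group means and with 4 means of fraction by stage, where the Nkx2-5 change of 1.06 had adjusted p = 0.478 and 0.443. Batch 1 alone gave 151 calls, of which 57 were shared and 87 lower. Batch 2 alone gave 0 in limma, with 2632 genes at an unadjusted p under 0.05. Counts were 77 for day 8 against day 5, 1116 for a linear trend, 125 with an offset of 1, 46 with quantile normalization, 1171 with equal array medians, 46 with no filter, 60 with the mean of all probe sets and 6 with no variance trend. Leaving out 1 pair gave 0 to 1040 calls. Nkx2-5 lost its call at 1.06 with batch as a covariate, no filter, mean probe sets or no variance trend, at 0.75 and 1.37 in batches 1 and 2 alone, at 1.35 for day 8 against day 5, at 1.09 with an offset of 1, at 1.03 with quantile normalization and at 0.76 with equal medians, with adjusted p from 0.0501 to 0.178. Leaving out pairs gave 0.90 to 1.14. All 202 genes kept their sign under every alternative run (199 were tested at the stricter filter). The genes were picked for a large change in these same arrays, and several alternatives leave the estimate as it is. A kept sign was therefore likely from the start. For 97 named genes and 24 alternatives, 1254 values kept direction and call, 1024 lost the call, 48 gained it and 1 reversed: Upk1b, at 0.24 in batch 2 alone. The causes were not tested.

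The arrays carry no detection calls, so a gap for a gene near 6.8 rests on the offset, and a change in a fraction's makeup cannot be told apart from a change within its cells. The calls sit close to the threshold and rest on 6 residual degrees of freedom.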

Other observations

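Other called genes, picked after their values were seen, add to the epithelial group. Occludin (Ocln, 2.32 ± 0.51, SE), its relative Marveld2 (2.58 ± 0.35), the polarity protein Crb3 (2.65 ± 0.46) and the keratin Krt7 (2.6 ± 0.44) all had late gaps above every early one, with limma adjusted p-values of 0.0489, 0.0275, 0.0387 and 0.0378. Genes of lipoprotein assembly and clotting were alike in this: Apoe (1.61 ± 0.24), the lipid transfer protein Mttp (1.9 ± 0.30) and prothrombin, F2 (2.15 ± 0.41). Cyp26a1, which breaks down retinoic acid, had late GFP-negative signals of 76.2, 101.5, 87.5 and 80.1 after 517, 2865, 156 and 504, and late GFP-positive signals of 358, 297, 400.1 and 395 after 467, 3783, 294 and 448, a change of 1.74 ± 0.25 (adjusted p = 0.0378). Ccn1 (1.73 ± 0.25) and Ccn2 (2.57 ± 0.48), matrix-associated signalling proteins, and the oxygen-regulated factor Epas1 (2.27 ± 0.43) were also called higher. So were the arterial connexin Gja4 (1.27 ± 0.27) and the homeobox genes Irx3 (1.26 ± 0.28) and Irx5 (2.07 ± 0.40). The cell cycle genes Ube2c (-0.71 ± 0.14), Uhrf1 (-0.74 ± 0.16) and Ccnd3 (-0.64 ± 0.13) were called lower, and Ccnb2 (-0.40 ± 0.15) was not (limma adjusted p = 0.148).

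The 2 cardiomyocyte arrays, of another clone and with no day or batch, entered no test. Several endoderm list genes were dim there: Apoa1 read 0.8 and 1.4, Apob 1.1 and 4.4, Ttr 18.0 and 14.1 and Rbp4 19.8 and 22.3. Others were not: Krt18 read 1103 and 984 and Krt19 473 and 515. Apoe read 1765 and 1709.7 and Epcam 26.9 and 25.7. Otx2 read 0.4 and 0.5 and Sox2 0.6 and 1.7. Muscle genes were bright, with Myh6 at 8122 and 7891.5 and Tnnc1 at 7471 and 7834. So were the collagen Col3a1, at 7162 and 7496, and the mesothelial marker Upk3b, at 2120.2 and 2172.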
